A study of Mus musculus with 8 samples.

Results

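The 6 Krüppel-like factor genes Klf1, Klf2, Klf4, Klf5, Klf6 and Klf7 form the subgroup of the family whose proteins act mainly as transcriptional activators. All probe sets that the platform annotation gives to these genes were taken, 13 of the 22626 in the value table, and none of them was also annotated to another gene. Klf1 and Klf2 had 1 probe set each, Klf4 and Klf5 had 2, Klf6 had 3 and Klf7 had 4. RNA came from primitive erythroid precursors, the nucleated red cells of the yolk sac, captured by laser from sections of mouse yolk sacs at embryonic day 9.5. Of the 8 arrays, 4 were labelled KLF2-/- (replicates 11, 12, 13 and 14) and 4 were wild type of the FVB/N strain (replicates 3, 5, 7 and 9). Each replicate pooled tissue of 2 to 4 yolk sacs from 2 litters. The labels state neither the deleted allele nor the strain of the KLF2-/- embryos, and they differ on whether their dams carried 1 or 2 mutant copies of the gene.

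Krüppel-like factors bind CACCC boxes and related GC-rich sites in DNA through zinc fingers at the end of the protein. Klf1 is the erythroid member and switches on genes for globin, haem synthesis and the red cell membrane. Klf2 is best known in endothelium and in resting T cells, and in the mouse yolk sac it contributes, with Klf1, to transcription of the embryonic beta-like globin genes. Klf4 and Klf5 are best known in epithelia and in pluripotent cells, Klf6 is broadly expressed and is needed for blood formation in the mouse yolk sac, and Klf7 is best known in developing neurons.

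The windows around the starts of Klf1 and Klf2 are shown because these genes lie at the centre of the results below and carry different regulatory letters. Both sequences are the RefSeq reference of build GRCm38.p6, plus strand, and run from 250 bases before the annotated start to 50 bases after it. Gene positions below are RefSeq spans of the same build. The Klf1 window is chr8:84901732-84902031 and the Klf2 window is chr8:72318812-72319111. Capitals mark CACCC on either strand (GGGTG when reversed) in both windows, GATAA on either strand (TTATC when reversed) in Klf1, and the palindrome CTAAATTTAG in Klf2.
Klf1: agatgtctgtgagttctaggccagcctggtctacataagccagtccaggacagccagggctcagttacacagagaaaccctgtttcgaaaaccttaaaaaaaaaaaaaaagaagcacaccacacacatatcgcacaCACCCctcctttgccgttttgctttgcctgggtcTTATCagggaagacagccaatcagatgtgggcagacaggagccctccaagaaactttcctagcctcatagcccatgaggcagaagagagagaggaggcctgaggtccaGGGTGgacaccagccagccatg
Klf2: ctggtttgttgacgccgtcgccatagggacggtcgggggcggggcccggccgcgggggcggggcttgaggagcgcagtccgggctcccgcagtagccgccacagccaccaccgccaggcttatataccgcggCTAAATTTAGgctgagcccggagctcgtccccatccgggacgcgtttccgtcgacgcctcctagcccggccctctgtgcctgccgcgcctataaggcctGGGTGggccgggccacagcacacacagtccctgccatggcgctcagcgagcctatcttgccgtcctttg
GATAA, the core letters bound by GATA factors, occurred 1 time in the Klf1 window, at position -80 from the start on the minus strand, and in none of the windows of Klf2, Klf4, Klf6 and Klf7. Of 32851 mouse promoter windows of this length, 25.4% held GATAA. The A/T-rich palindrome, of the kind bound by MEF2 factors, lay at position -118 of the Klf2 window and was found in 13 of the 32851 windows (0.0396%). Only this exact sequence was searched, and other sites that MEF2 factors bind were not counted. It is longer than GATAA and CACCC, so its share cannot be set against theirs. CACCC occurred 2 times in the Klf1 window, 1 time in that of Klf2 and 3 times in that of Klf7, and 57.5% of all windows held it. The motifs do not overlap each other, and a match describes these letters only.

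Values are log2 expression values as deposited, 1 per probe set and array, and differences are the mean of the arrays labelled KLF2-/- minus the mean of wild type. By limma with Benjamini-Hochberg adjustment over the whole table, 0 of 22626 probe sets passed an adjusted p of 0.05 (0%), and 1222 (5.40%) had an unadjusted p under 0.05. At 676 probe sets (2.99%) no value of one group lay within the range of the other. Median values per array lay between 5.08 and 5.20. Wild-type arrays 3 and 5 had the lowest erythroid marker means of their group (10.51 and 10.79 on the log2 scale, the others 11.30 and 11.33). The markers did not move together. Alas2 was at 7.54 and 7.88 in arrays 3 and 5, against 10.58 and 10.33 in arrays 7 and 9. Gata1, Epor and Hba-x were also lower in arrays 3 and 5. Hbb-y was at 13.81 and 13.76 there, the highest of all 8 arrays, and Hbb-bh1, Slc4a1 and Tfrc showed neither order. Differences without wild-type arrays 3 and 5 are given for the Klf probe sets and lists that they move most. Array 13, labelled KLF2-/-, had a lower mean (10.21) and was kept in those fits. Leaving out low arrays of wild type alone lowers the difference of any gene that follows the erythroid marker mean. Such differences show dependence on the arrays and not a group effect. Of 9 erythroid markers 8 were measured, and their summed signal (log2 of the sum of unlogged values) ran from 15.22 to 15.49 in the arrays labelled KLF2-/- and from 15.29 to 15.45 in wild type. The 10 visceral endoderm markers were also bright, at a summed signal from 12.37 to 15.13 and from 14.36 to 14.75, with the lowest value in array 14. The table has no detection calls and no marker at 0.

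Klf2 (chr8:72319062-72321654), the gene named as deleted, was not lower in the arrays labelled KLF2-/-. Its log2 values there were 5.38, 5.77, 7.15 and 5.89 in arrays 11 to 14, against 5.18, 5.28, 4.97 and 5.70 in the wild-type arrays 3, 5, 7 and 9. The highest value of all 8 arrays was that of array 13, labelled KLF2-/-, and the groups overlapped because wild-type array 9 lay above array 11. The mean difference was 0.77 (SE 0.35, 95% interval -0.03 to 1.57), at an adjusted p of 0.860 by limma and an exact two-sided permutation p of 0.0571, where 0.0286 is the smallest that 4 against 4 arrays allow. Without array 13 the difference was 0.40 (SE 0.21). An unadjusted limma p at or below that of Klf2 was found at 6.37% of all probe sets. No source used here places the probes inside or outside the deletion, so this probe set does not check the labels, and arrays are named by their labels throughout.

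Klf1 (chr8:84901982-84905291), the red cell factor, varied widely inside both groups. Its log2 values were 10.06, 9.43, 8.52 and 10.62 in arrays 11 to 14, and 9.15, 9.14, 10.29 and 10.73 in arrays 3, 5, 7 and 9 of wild type. Low values came from array 13 of one group and from arrays 3 and 5 of the other, and the groups overlapped between 9.14 and 10.62, with array 13 below every wild-type value. The range over 8 arrays was 4.64-fold, and its SD was larger than that of 97.0% of all probe sets. Between groups the log2 difference was -0.17 (SE 0.51, 95% interval -1.32 to 0.98; adjusted p = 0.977, limma; exact permutation p = 0.771). Its sign turned without array 13 (0.21) and without wild-type array 9 (0.13), and without wild-type arrays 3 and 5 it was -0.86 (SE 0.54, adjusted p = 1.000, limma).

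**Figure D1:**
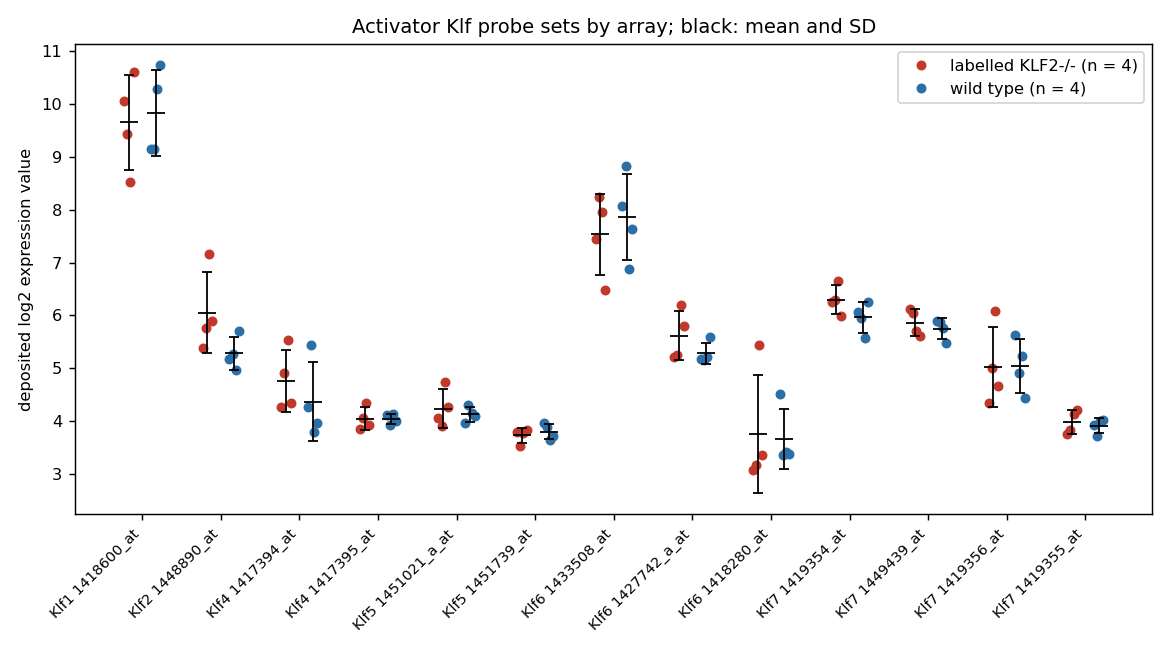
Deposited log2 values (vertical axis) of the 13 probe sets of the 6 genes (horizontal axis), 1 point per array, red for arrays labelled KLF2-/- and blue for wild type, with black bars for the mean and SD of 4 arrays. The groups overlap at every probe set, and Klf1 spans 8.52 to 10.73.

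Genes that lie around Klf1 in the red cell programme followed its level from array to array. Each gene is given by its brightest probe set, and correlations are given as descriptions over 8 arrays that share 1 normalisation. Of 16 listed KLF1-dependent red cell genes 11 were measured. Of these, 8 had a Pearson r of at least 0.7 with Klf1, where 7.94% of 6196 genes at or above the median level did. The list was not filtered by level, and Bcl11a lay below that median. The mean log2 value of the 11 genes was 8.10, 7.66, 6.86 and 8.41 in arrays 11 to 14, and 7.29, 7.25, 8.24 and 8.18 in the wild-type arrays 3, 5, 7 and 9. The order is close to that of Klf1, with array 13 lowest and arrays 3 and 5 next (r = 0.97, Spearman's rho = 0.93). Without array 13 and wild-type array 9, the arrays farthest from the Klf1 median, r was 0.99. For the mean of the measured erythroid markers r with Klf1 was 0.95, and 0.93 without array 13. Alas2 and Slc4a1 are in both lists, so this does not show whether the relation is particular to KLF1-dependent genes. Among the markers outside the KLF1-dependent list, r with Klf1 was 0.95 for Epor, 0.94 for Gata1, 0.71 for Tfrc and 0.51 for Hba-x. It was 0.17 for Hbb-bh1 and -0.34 for Hbb-y. Fech, which inserts iron into haem, had r = 0.97 with Klf1, and Blvrb, which reduces biliverdin, had 0.96. Alas2, the first enzyme of haem synthesis in red cells, had 0.88 and Dmtn, the membrane skeleton protein dematin, had 0.90. Slc4a1, the anion exchanger band 3, had 0.65, and Bcl11a, a repressor of embryonic globin genes in mouse, had -0.05.

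None of these genes differed between the groups by the test. Of the 11 genes, 6 were higher and 5 lower in the arrays labelled KLF2-/-, 0 passed, and the median log2 difference was 0.10, beside 0.02 for all 12393 genes, 53.4% of which were higher. Alas2 was at 9.55 ± 1.17 (SD, n = 4) against 9.08 ± 1.60, Dmtn at 6.48 ± 0.69 against 6.22 ± 1.11 and Slc4a1 at 10.93 ± 0.76 against 11.36 ± 0.09. Without wild-type arrays 3 and 5 the median of the list was -0.66, a fall that leaving out low arrays of 1 group alone builds in. Without array 13 the median was 0.19, and with 1 array left out it ran from -0.11 to 0.22. Erythroid marker levels, from a list that shares 5 of its 8 measured genes with the lists of KLF1-dependent genes, Klf1 regulators and embryonic globins, were at a mean log2 value of 10.21 in array 13, 10.51 and 10.79 in wild-type arrays 3 and 5, and 10.94 to 11.45 in the other 5 arrays. The mean of Hbb-y and Hbb-bh1 was not low there, at 13.85 in array 13 and at 13.94 and 13.95 in wild-type arrays 3 and 5. It was 13.59 to 13.88 in the other arrays. For the markers that were low, fewer erythroid cells and less RNA per cell cannot be told apart in these pooled captures.

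The regulators of Klf1 gave a similar order. Gata1, the GATA factor of red cells, had r = 0.94 with Klf1 over 8 arrays, Tal1 had 0.92 and Lmo2 0.86, the last 2 being partners of Gata1 in one DNA-bound complex. Ldb1, which bridges that complex, had 0.48. Gata2, which precedes Gata1 in progenitors, was the one of 6 with a negative r (-0.76). Gata1 log2 values were 9.13, 8.77, 7.76 and 9.77 in arrays 11 to 14, and 8.01, 8.26, 8.96 and 9.28 in arrays 3, 5, 7 and 9 of wild type. As for Klf1, array 13 was lowest and wild-type arrays 3 and 5 were the next lowest. The group differences were 0.23 (SE 0.43) for Gata1, -0.15 (SE 0.57) for Tal1, 0.55 (SE 0.38) for Ldb1 and -0.14 (SE 0.48) for Lmo2. Of these 6 genes 3 were higher and 3 lower, 0 passed (lowest adjusted p = 0.907, limma), and the median was 0.07. This median was 0.50 without array 13 and -0.39 without wild-type arrays 3 and 5.

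The embryonic beta-like globin genes, which depend on Klf1 and Klf2, did not follow either factor. Hbb-y and Hbb-bh1 averaged 13.84, 13.59, 13.85 and 13.88 in arrays 11 to 14, and 13.94, 13.95, 13.86 and 13.66 in the wild-type arrays 3, 5, 7 and 9. Array 13, with the least Klf1, was in the middle of this order, and wild-type array 9, with the most Klf1, was next to lowest. For Klf1 the r was -0.34 with Hbb-y and 0.17 with Hbb-bh1, and for Klf2 it was -0.09 and -0.46. Both globin genes lie at the top of the measured range, at percentiles 100 and 99.99 of all genes, and the linearity of the arrays at that level was not tested.

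**Figure D2:**
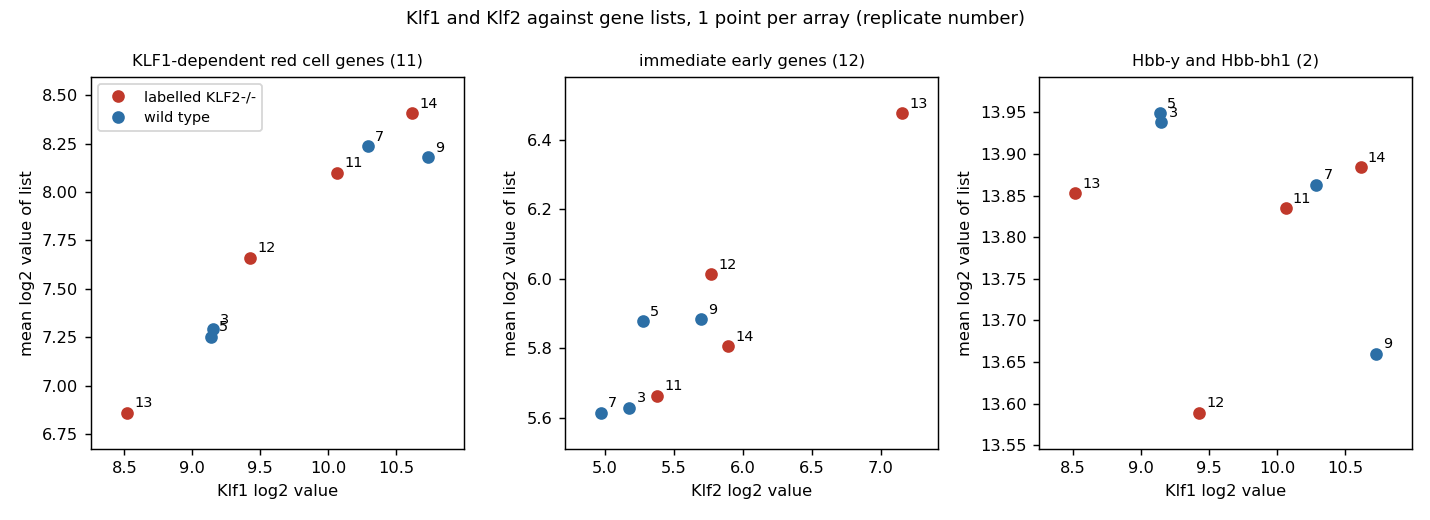
Mean log2 value of a gene list (vertical axes) against the log2 value of Klf1 (left and right) or Klf2 (centre), 1 point per array with its replicate number, red for arrays labelled KLF2-/- and blue for wild type. KLF1-dependent genes are higher where Klf1 is higher (r = 0.97), immediate early genes where Klf2 is higher, with array 13 at the far end (r = 0.93), and the embryonic globin pair shows no such order.

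Klf2 instead went with immediate early genes, which cells switch on within minutes of a stimulus. The mean log2 value of 12 such genes was 5.66, 6.01, 6.48 and 5.81 in arrays 11 to 14, and 5.63, 5.88, 5.61 and 5.88 in arrays 3, 5, 7 and 9 of wild type. Array 13 was the highest for the list and for Klf2, and wild-type array 7 the lowest for both. Over 8 arrays r was 0.93 (Spearman's rho = 0.81), it was 0.72 without array 13, and 0.60 without array 13 and wild-type array 7. The order was not particular to Klf2. With this list r was 0.77 for Klf6 1427742_a_at, 0.76 for Klf7 1419354_at, 0.75 for Klf4 1417394_at and 0.73 for Klf5 1451021_a_at. Each of these was highest in array 13. The remaining probe sets of these genes had r from -0.21 to 0.62. Of the 12 genes, 6 had an r of at least 0.7 with Klf2, where 4.18% of 6196 genes at or above the median level did. The list was not filtered by level, and Ier2, Fosb and Junb lay below that median. The stress factor Atf3, named for having the highest r of the list, had 0.90. The growth factor responsive Ier2 had 0.75, Jun had 0.65, Egr1 had 0.54 and Fos had 0.50. The lowest were Fosb (0.24) and Myc (-0.37).

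By group, 10 of the 12 immediate early genes were higher in the arrays labelled KLF2-/-, 2 were lower and 0 passed (lowest adjusted p = 0.905, limma). The median log2 difference was 0.28 beside 0.02 for all genes, and 0.10 without array 13. Ier2 was at 5.88 ± 0.22 (SD, n = 4) against 5.29 ± 0.23 and Egr1 at 7.19 ± 0.32 against 6.88 ± 0.45. Fos was at 5.86 ± 1.48 against 6.10 ± 0.94 and Jun at 5.76 ± 0.49 against 5.76 ± 0.17.

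The probe sets of Klf4 (chr4:55527137-55532475), both listed under the same source sequence, behaved differently. Probe set 1417394_at had log2 values of 4.26, 4.92, 5.53 and 4.35 in arrays 11 to 14, and 4.27, 5.45, 3.80 and 3.96 in the wild-type arrays 3, 5, 7 and 9. Array 13 and wild-type array 5, 1 from each group, were the highest. The log2 difference was 0.40 (SE 0.40, adjusted p = 0.912, limma; exact permutation p = 0.400). It was 0.89 (SE 0.37) without wild-type arrays 3 and 5, where the remaining groups did not overlap (adjusted p = 0.9998, limma). The arrays left out held the highest wild-type values, and the share of all probe sets without overlap was not counted for that split. Probe set 1417395_at stayed between 3.85 and 4.34 and differed by 0.00 (SE 0.14, 95% interval -0.31 to 0.31). Probe set 1417394_at ran with Egr1, the zinc finger immediate early factor (r = 0.98), and against Klf1 (r = -0.81). Klf4 and Egr1 were set side by side after their values were seen.

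Both probe sets of Klf5 (chr14:99298691-99313412) were dim. Over all probe sets the mean of 1451021_a_at was at percentile 29.48 and its SD at 45.84. For 1451739_at these were 18.05 and 11.14. Probe set 1451021_a_at ranged from 3.90 to 4.74 with a log2 difference of 0.11 (SE 0.19), and probe set 1451739_at from 3.53 to 3.96 with -0.07 (SE 0.13). Their adjusted p by limma was 0.956 and 0.958. Array 13 held the highest value of the first and a middle value of the second.

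The 3 probe sets of Klf6 (chr13:5861489-5870393) gave 3 different pictures. Probe set 1433508_at measured 7.45, 8.23, 7.96 and 6.48 in arrays 11 to 14, and 8.08, 8.82, 6.89 and 7.64 in arrays 3, 5, 7 and 9 of wild type. Both groups spanned most of a 5.06-fold range, with array 14 lowest and wild-type array 5 highest, and the log2 difference was -0.32 (SE 0.47, adjusted p = 0.942, limma). It turned to 0.27 without wild-type arrays 3 and 5. Probe set 1427742_a_at measured 5.22, 5.26, 6.20 and 5.80 in arrays 11 to 14, and 5.17, 5.16, 5.21 and 5.59 in the wild-type arrays 3, 5, 7 and 9. It was highest in array 13, differed by 0.34 (SE 0.23, adjusted p = 0.869, limma) and had r = 0.92 with Klf2. Probe set 1418280_at lay between 3.07 and 3.42 in 6 arrays, at 5.43 in array 13 and at 4.52 in wild-type array 3, with a difference of 0.09 (SE 0.53), which was -0.47 without array 13, 0.37 without wild-type array 3 and 0.36 without wild-type arrays 3 and 5. Probe set 1433508_at had r = 0.05 with Klf2 and -0.72 with Klf1, so the probe sets of this gene do not stand for 1 level.

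The 4 probe sets of Klf7 (chr1:64029448-64122345), all listed under the same source sequence, differed between them too. Probe set 1419354_at measured 6.26, 6.30, 6.65 and 5.997 in arrays 11 to 14, and 6.07, 5.95, 5.56 and 6.26 in arrays 3, 5, 7 and 9 of wild type. Most values lay within a narrow band, array 13 was highest and wild-type array 7 lowest. The log2 difference was 0.34 (SE 0.19, 95% interval -0.09 to 0.77; adjusted p = 0.860, limma; exact permutation p = 0.171), and r with Klf2 was 0.81. Probe sets 1449439_at, 1419356_at and 1419355_at differed by 0.12 (SE 0.16), -0.02 (SE 0.39) and 0.07 (SE 0.15). Of these, 1419356_at had the widest range, 4.34 to 6.08, with array 13 highest and array 11 lowest.

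Across the 6 genes, 9 probe sets had a higher and 4 a lower mean in the arrays labelled KLF2-/-, where 52.2% of all probe sets had a higher one, and no group difference passed. An absolute difference at least as large as that of Klf2 was found at 2.15% of all probe sets. At an unadjusted p under 0.05 there were 0 of 13, beside 5.40% of all probe sets, and the groups overlapped at all 13, beside 2.99% of all probe sets that did not overlap. The median absolute log2 difference was 0.12 over the 13 and 0.14 over the whole table. In the authors' deposited table, whose score correlated with the log2 difference at r = 0.80 over all probe sets, 0 of the 13 had a q under 0.05, where 0.968% of all probe sets did. In the authors' deposited table the largest score was that of Klf7 probe set 1419354_at, 2.15 at p = 0.0314 and q = 0.531, followed by Klf6 probe set 1433508_at (-1.93, q = 0.669) and Klf2 (1.75, q = 0.795). The direction of that score is not stated in its header and was read from the correlation.

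**Figure D3:**
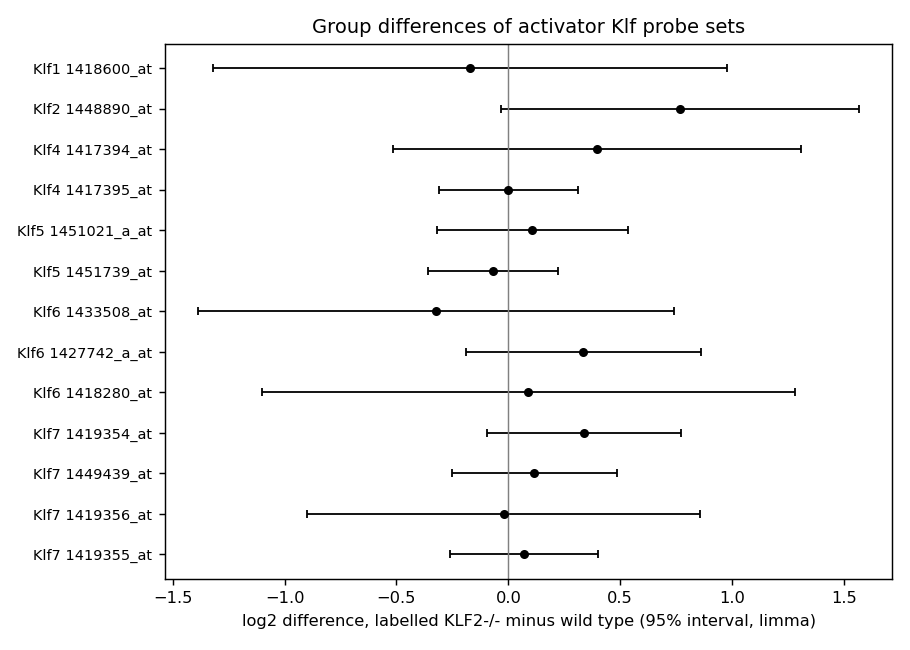
Log2 difference of the arrays labelled KLF2-/- minus wild type (horizontal axis) for each of the 13 probe sets (vertical axis), with 95% intervals from limma as bars. Every interval includes 0, and that of Klf2 runs from -0.03 to 1.57.

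The arrays differed more than the groups, and array 13 stood out. It held the highest of the 8 values for 8 of the 13 probe sets, beside 13.4% of all probe sets in the table, and the lowest value of Klf1. The 8 were those of Klf2, both of Klf4, 1 of Klf5, 2 of Klf6 and 2 of Klf7, several of which share a source sequence. The same array had the lowest mean of 8 erythroid markers (10.21, others 10.51 to 11.45). It had the highest mean of 10 visceral endoderm markers (10.95, others 7.64 to 10.75) and of 7 macrophage markers (6.20, others 5.41 to 6.04). Among the macrophage markers, array 13 was highest for Csf1r (9.52, the next 8.05) and Adgre1 (6.88, the next 6.38). For Cd14, Mrc1, Ptprc, Tyrobp and C1qa another array was highest. Summed macrophage signal was 9.02 to 10.14 in the arrays labelled KLF2-/- and 8.85 to 9.14 in wild type, on the log2 scale, with all 7 markers higher by mean, 0 of them past the adjusted threshold and 2 at an unadjusted p under 0.05. Summed endothelial signal over 10 markers was 9.36 to 10.38 against 9.09 to 9.80, with 0 markers past the adjusted threshold and 3 at an unadjusted p under 0.05. The part of these other cell types in the Klf values was not tested.

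**Figure D4:**
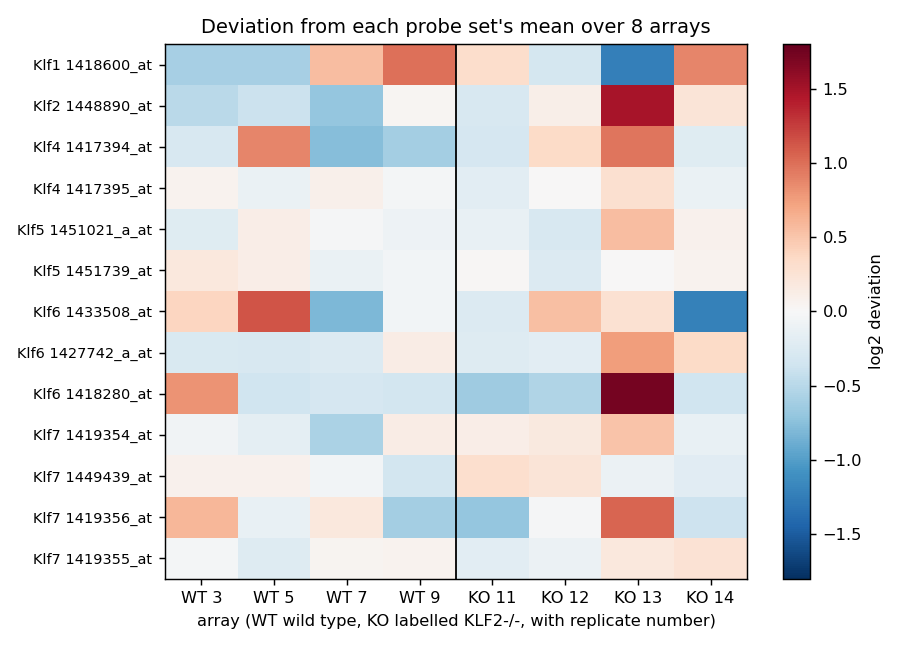
Log2 deviation of each probe set (rows) in each array (columns, wild type left of the line and labelled KLF2-/- right of it) from that probe set's mean over 8 arrays, red above and blue below. Column KO 13 is red for most rows and blue for Klf1, and columns WT 3 and WT 5 are blue for Klf1.

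Genes that act on Klf2 or on the Klf proteins showed no group difference that passed. Of 7 genes upstream of Klf2, 2 were higher and 5 lower, with a median log2 difference of -0.08 (from -0.22 without array 11 to 0.014 without array 13) and 0 passed. The kinase Mapk7, which relays flow signals, was at 5.39 ± 0.07 (SD, n = 4) in both groups. Its activator Map2k5 was at 5.95 ± 0.30 against 6.13 ± 0.25. Mef2a and Mef2c, of the factor family that binds the palindrome printed above, were at 6.77 ± 0.35 against 7.13 ± 0.32 and at 7.17 ± 0.46 against 7.25 ± 0.31. Mef2c had r = -0.77 with Klf2 over 8 arrays and Mef2a -0.37. Foxo1, a Klf2 activator in T cells, had 0.82, and was singled out after its value was seen. Array 13, the highest for Klf2, was also the highest for Foxo1 (7.69, the next 7.03) and the lowest for Mef2c (6.54). The r of these genes without array 13 was not computed.

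Of 4 listed genes of Klf protein turnover 3 were measured, all lower and none past the threshold (median -0.14). The median was -0.33 without array 11, 0.048 without array 13, 0.031 without wild-type array 5 and 0.11 without wild-type arrays 3 and 5. The ubiquitin ligase genes Wwp1 and Fbxw7 differed by -0.14 (SE 0.26) and -0.19 (SE 0.27), and the ligase scaffold gene Cul4a by -0.02 (SE 0.23). Of 10 cofactor genes 9 were measured, 5 higher and 4 lower with 0 past the threshold (median 0.17, from -0.036 without array 12 to 0.36 without array 14). The acetyltransferase genes Crebbp and Kat2b differed by 0.45 (SE 0.24) and -0.23 (SE 0.28), and the chromatin remodeller gene Smarca4 by 0.20 (SE 0.33). The lowest adjusted p over these lists was 0.905 by limma.

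Established KLF2 targets of endothelium and lymphocytes were at a median difference of 0.02 over 11 of 12 listed, 6 higher and 5 lower, with 0 passed. With 1 array left out this median ran from -0.017 to 0.028. The list was not split into genes that KLF2 raises and genes that it lowers. Its median, its counts by direction and its mean level therefore cannot show whether the targets responded. Thbd, the thrombin receptor thrombomodulin, was at 4.69 ± 0.29 (SD, n = 4) against 5.10 ± 0.52. S1pr1, the receptor that lets lymphocytes leave tissue, was at 4.52 ± 0.38 against 4.13 ± 0.18. Nos3, the nitric oxide synthase of endothelium, was at 5.93 ± 0.15 against 5.91 ± 0.09. Over the arrays S1pr1 had r = 0.84 with Klf2, Thbd -0.14 and Nos3 -0.22. The cell cycle inhibitor gene Cdkn1a had 0.92, the highest of this list. Array 13, the highest for Klf2, was also the highest for Cdkn1a (7.29) and S1pr1 (5.01). For the mean of the 11 genes r with Klf2 was 0.61 (Spearman's rho = 0.40). It was 0.16 without array 13, -0.49 without array 13 and wild-type array 7, and 0.96 without wild-type arrays 3 and 5.

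The other Klf and Sp genes, 14 measured of 19 listed, had a median difference of -0.03 with 6 higher, 8 lower and 0 passed. With 1 array left out this median ran from -0.066 to 0.050. Klf3, a repressor that Klf1 induces in red cells, was at 6.89 ± 0.71 (SD, n = 4) against 6.83 ± 0.14. Klf9 was at 7.38 ± 0.99 against 6.79 ± 1.01 and Klf10 at 6.07 ± 0.57 against 6.30 ± 0.14. Over the 75 measured genes of these lists of regulators, partners and targets, 2 (2.67%) had an unadjusted limma p under 0.05, beside 4.80% of all genes. These were Ier2 and Cdkn1a (adjusted p = 0.905 each).

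The genes whose pattern over the 8 arrays was most like that of Klf1, among 6196 at or above the median level, were Cox6b2 (r = 0.97), Fech (0.97), Marchf2 (0.96), Blvrb (0.96) and Mrap (0.95). An r of at least 0.9 with Klf1 was found for 45 genes and one of -0.9 or below for 12. For Klf2 they were Ngdn (r = 0.97), Stard4 (0.96), Pam16 (0.96), Mdm2 (0.95) and Pxmp4 (0.95), with 21 genes at 0.9 or above and 73 at -0.9 or below. The 5 genes named for Klf2 were all highest in array 13. These are the highest values of a search over 6196 genes on 8 arrays and are given as a description.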

How the data were processed

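Expression was measured on 8 Affymetrix mouse arrays, 4 labelled KLF2-/- and 4 wild type, from laser-captured yolk sac erythroid cells. Per the labels' protocols, 10 to 20 ng of RNA (knockout) or 10 to 39 ng (wild type) was amplified by two-cycle labelling. The authors deposited 1 log2 value per probe set and array, and the submitters' processing notes name GCOS, RMA and affy with no version. The authors also deposited a signed score for each probe set and its p-value and q-value, and no header or label states how they were computed.

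Values were used as deposited, without further normalisation or filter. limma 3.58.1 in R 4.3.3 (lmFit, eBayes, no covariate) was fitted to all 22626 probe sets, with Benjamini-Hochberg adjustment over all of them and a threshold of 0.05, and was tested on simulated data. For single probe sets an exact permutation test (two-sided) was added. The number of arrays limits the precision, and the labels call the replicates biological. Alternatives were another normalisation, centring, leaving out dim probe sets, other limma settings, a mean over a gene's probe sets, the authors' score and leaving out arrays. Where a gene list is used, a gene is its probe set of highest mean (12393 genes), and lists are described by counts and medians only. Named genes are all members, the first 4 of each list in its order and the 5 genes most like Klf1 and like Klf2, and other list genes (Gata2, Bcl11a, Foxo1, Cdkn1a, Atf3, Fosb and Myc) were named after their values were seen. The members and lists were chosen with earlier results of these data known. Promoter windows were available for 5 of the 6 genes.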

Additional observations from a re-analysis of the deposited data

Results flagged for a closer look

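Of 26 sets of 4 arrays (13 probe sets in 2 groups), 3 had a highest array whose gap to the next exceeded Dixon's limit at the 95% level, and chance gives about 1 in 20. All 3 were probe sets of Klf6. Probe set 1418280_at was at 5.43 in array 13, where the next array labelled KLF2-/- was at 3.35, and at 4.52 in wild-type array 3, where the next was at 3.42. Probe set 1427742_a_at was at 5.59 in wild-type array 9, where the next was at 5.21.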

How the results depend on the processing

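No paired analysis was possible because the groups share no replicate number. No probe set of the table passed an adjusted p of 0.05 by limma under any of the 14 refits, where the unadjusted count of 1222 became 592 without dim probe sets (7 of the 13 Klf probe sets left out), 2544 with array weights, 425 without wild-type arrays 3 and 5, and 637 to 1962 with 1 array left out. Klf2, Klf4 1417394_at, Klf6 1427742_a_at and Klf7 1419354_at kept a positive difference in every refit that held them. Klf probe sets at an unadjusted p under 0.05 numbered 1 with a trended, robust prior (Klf2), 1 without wild-type arrays 3 and 5 (Klf4 1417394_at), and 0 to 1 with 1 array left out (Klf2 without array 11 or wild-type array 9, Klf4 1417394_at without wild-type array 5). Klf probe sets without overlap numbered 1 without wild-type arrays 3 and 5 and 0 to 2 with 1 array left out. Groups of fewer arrays separate more easily, and the share of all probe sets without overlap was not counted in these refits. These counts are therefore not read as a result about the Klf genes. With 1 array left out the difference ran from -0.49 to 0.21 for Klf1, 0.40 to 0.99 for Klf2, 0.14 to 0.76 for Klf4 1417394_at, -0.10 to 0.063 for Klf4 1417395_at, -0.060 to 0.22 for Klf5 1451021_a_at, -0.12 to 0.00038 for Klf5 1451739_at, -0.65 to 0.027 for Klf6 1433508_at, 0.14 to 0.47 for Klf6 1427742_a_at, -0.47 to 0.37 for Klf6 1418280_at, 0.21 to 0.44 for Klf7 1419354_at, 0.02 to 0.20 for Klf7 1449439_at, -0.37 to 0.21 for Klf7 1419356_at and -0.0046 to 0.15 for Klf7 1419355_at.

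Signs turned elsewhere for Klf7 1449439_at with quantile normalisation (-0.0081), for Klf4 1417395_at with centred arrays (-0.030), and with array weights for Klf4 1417395_at (-0.029), Klf5 1451021_a_at (-0.017), Klf6 1418280_at (-0.19) and Klf7 1419355_at (-0.0052). Without wild-type arrays 3 and 5 they turned for Klf4 1417395_at (-0.024), Klf5 1451739_at (0.052), Klf6 1433508_at (0.27), Klf7 1419356_at (0.20) and Klf7 1419355_at (-0.024). The mean over the 3 Klf6 probe sets differed by 0.034. The score in the authors' deposited table had the other sign for Klf1 (0.15), Klf4 1417395_at (-0.26), Klf7 1449439_at (-0.69) and Klf7 1419355_at (-0.97). The cause of these changes was not tested. No probe set of the Klf genes was annotated to several genes, so that alternative gave no value. Signal over background could not be judged per probe set without detection calls.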
